A study of Mus musculus with 26 samples.

Results

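The genes of oxidative phosphorylation were followed in 4 RNA-seq libraries of mouse E14 cells, an embryonic stem cell line. They were chosen by symbol: the numbered Ndufa, Ndufb, Ndufc, Ndufs and Ndufv genes of complex I, Sdha to Sdhd of complex II, the Uqcr genes of complex III, the genes whose symbols open with Cox4 to Cox8, placed here with complex IV, the Atp5 genes of complex V, and the subunits encoded by mitochondrial DNA. Symbols with -ps, which mark pseudogenes, were left out and numbered 6. The choice held 97 of 52535 gene entries, 84 in the nuclear genome and 13 in the mitochondrial genome. Complex I had 44 members, complex II 4, complex III 9, complex IV 21 and complex V 19.

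The study asks about KLF4, a transcription factor of the naive pluripotency network, in early neural differentiation. Of its 26 samples these 4 carry gene counts: 2 biological replicates labelled WT and 2 labelled Klf4-KO, all labelled neural progenitor cells (NPC) after 12 days of neural induction. Before induction the cells were kept on gelatin with serum, LIF, the MEK inhibitor PD0325901 and the GSK3 inhibitor CHIR99021. How the Klf4 allele was made, and whether the mutant line was 1 clone, is not given in the sources used here. RNA polymerase II HiChIP, an assay of distant DNA fragments joined at polymerase sites, is present as 1 loop list per labelled genotype.

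The targeted gene went against the labels. Klf4 had 0 and 0 counts in the WT-labelled libraries and 2571 and 2538 counts in the KO-labelled libraries. The libraries are therefore called by their labels, every direction is KO-labelled against WT-labelled, and the genotype behind each label is not settled. The labelled cell type was also only partly borne out by markers. Pluripotency genes remained abundant in all 4 libraries: Pou5f1, the gene of OCT4, stood at 835 and 846 CPM (counts over the scaled library size) in the WT-labelled libraries and 429 and 430.2 CPM in the KO-labelled libraries. Pax6, a defining neural progenitor gene, stood at 0.171 and 0 CPM and 3.498 and 3.62 CPM. Libraries held 29835774 to 37703866 gene counts. Replicates correlated at 0.981 and 0.986 across genes (log2 CPM, Pearson), and libraries of different labels at 0.853 to 0.856.

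Oxidative phosphorylation passes electrons from NADH and succinate through complexes I to IV to oxygen, and complex V uses the resulting proton gradient to make ATP. Every complex but complex II is built from subunits of both genomes, so nuclear genes, imported proteins and mitochondrial transcripts all contribute to it. Pluripotent cells are known to draw heavily on glycolysis, and the balance between glycolysis and respiration shifts as they leave the naive state and differentiate.

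Of the 97 members, 92 had enough counts to be tested. Among them 74 were lower in the KO-labelled libraries, 4 were higher and 14 did not pass (edgeR's quasi-likelihood test, passing below 0.05 after adjustment by Benjamini and Hochberg's method over 17273 genes). Changes were common in these libraries: 73.0% of all genes tested passed in either direction, 35.8% lower and 37.2% higher. The members' shares were 80.4% lower and 4.35% higher. Of all genes that passed, 50.9% were higher; when libraries were scaled by total counts alone this share was 62.0%, with 59 members lower and 10 higher. With a change of at least 1.5-fold required as well, 44 members were lower (47.8%, against 21.6% of all genes) and 2 were higher, Atp5s and Cox6b2 (28.1% of all genes were higher by this rule). Scaling by total counts alone left 28 members lower by this rule. The median log2 fold change of the members was -0.57, against 0.026 for all genes tested. Members also spread less than genes at large, with a standard deviation of log2 fold changes of 0.55 against 1.89. Genes at large ranged from -10.3 to 14.2 and include some without counts under 1 label, such as Klf4. The 2 sets were not matched for level. The share of all genes with no overlap between labels is not given here, so statements of no overlap describe single genes only.

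By genome of origin, nuclear members had the larger falls by median and sum over all complexes, though not within complex I. Of 80 nuclear members tested, 67 were lower and 4 higher, with a median log2 fold change of -0.63. Of 12 mitochondrially encoded members tested, 7 were lower and none higher, with a median of -0.29. When libraries were scaled by total counts alone these medians were -0.42 and -0.079. Summed over the nuclear members, the level was 14899 and 14848 CPM in the WT-labelled libraries and 9317 and 9513 CPM in the KO-labelled libraries. Summed over the mitochondrial members, it was 23497 and 24220.3 CPM and 19479 and 19534 CPM. Neither sum overlapped between labels, and the nuclear sum was 1.58-fold lower and the mitochondrial sum 1.22-fold lower. Of the mitochondrial sum, mt-Co1 alone held 11559 and 11961 CPM and 10937 and 11086 CPM, 1.07-fold lower. The mitochondrial sum and the share that follows thus lean on that gene. Mitochondrial transcripts made up 61.2% and 62.0% of all members' counts in the WT-labelled libraries and 67.6% and 67.3% in the KO-labelled libraries, a share that needs no scaling between libraries. Scaling by total counts alone gave log2 ratios of the sums of -0.45 (nuclear, otherwise -0.66) and -0.081 (mitochondrial, otherwise -0.29). With 2 libraries against 2, an exact permutation test cannot go below 0.33, so these sums and shares carry no test. In bulk libraries, fewer cells of a type and less RNA per cell cannot be told apart.

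Marker genes moved in the same libraries. The summed level of 11 pluripotency markers was 8240 and 8268 CPM in the WT-labelled libraries and 4317 and 4368 CPM in the KO-labelled libraries, with 9 lower and 2 higher. The 9 neural progenitor markers summed to 86.1 and 84.7 CPM and to 294 and 301 CPM, with 8 higher. Otx2, at 7.95 and 7.87 CPM and 171 and 168 CPM, made up most of that difference, and Fabp7, Hes5 and Pou3f2 were below 1 CPM in every library. Neuron markers, 6 in all, summed to 509 and 493 CPM and to 202 and 201 CPM, with 2 lower (Tubb3 and Stmn2) and 3 higher. Mesoderm and muscle markers summed to 16.9 and 16.9 CPM and to 207 and 197 CPM, chiefly through Acta2, and endoderm markers to 1.03 and 1.34 CPM and to 35.7 and 36.3 CPM. The 6 fibroblast and matrix markers summed to 1315 and 1317 CPM and to 1624 and 1578 CPM, with 3 higher. Fn1 held most of that sum and did not pass, while Col1a1 stood at 0.826 and 0.6499 CPM and 106 and 100.5 CPM and Col1a2 at 0.0285 and 0.0361 CPM and 149 and 144 CPM. The part of these cell type differences in the members' changes was not tested.

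**Figure D1:**
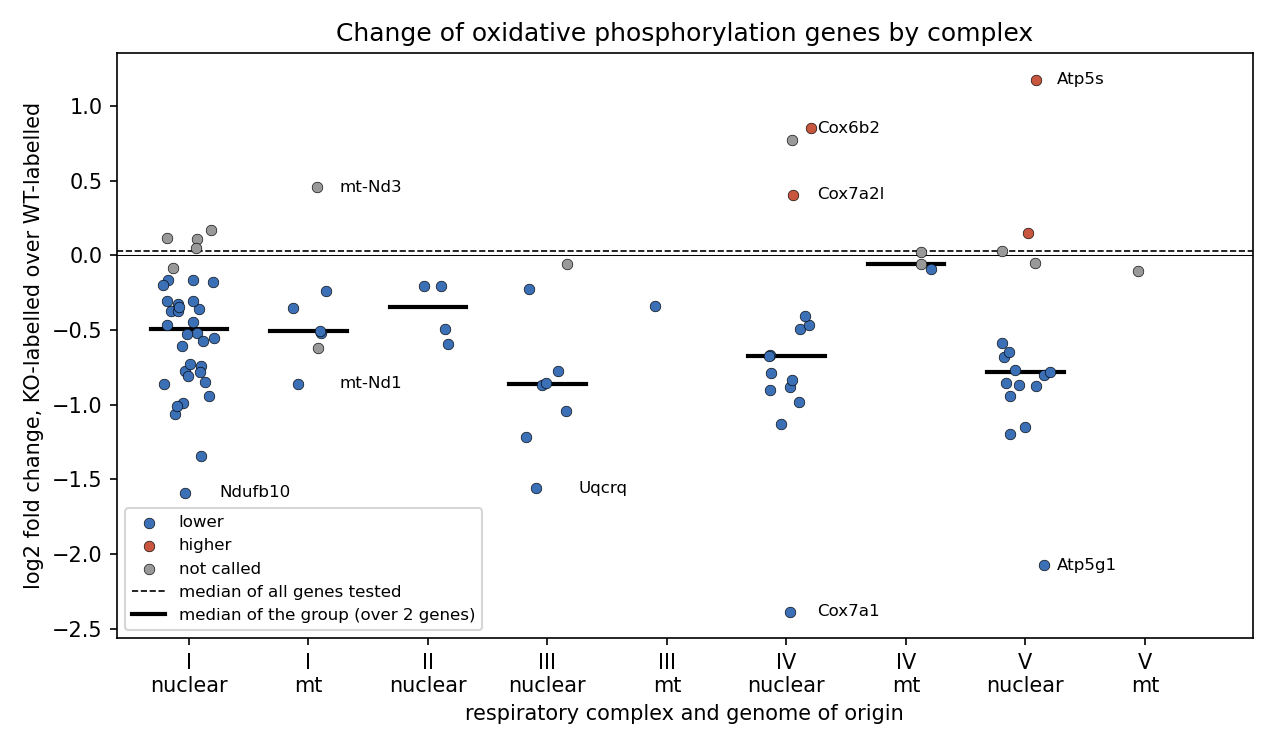
Log2 fold change (KO-labelled over WT-labelled, 2 libraries each) of each tested member, by respiratory complex and genome of origin, coloured by the outcome of the edgeR test, with group medians as bars and the median of all 17273 genes dashed. Most nuclear members lie below 0, complexes III and V lowest by median (-0.86 and -0.78), while the 3 mitochondrial genes of complex IV lie close to 0.

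Complex I, the NADH dehydrogenase that feeds electrons into coenzyme Q, had 36 nuclear members tested, of which 31 were lower and none higher, with a median log2 fold change of -0.49. Its nuclear sum was 2986 and 2941 CPM in the WT-labelled libraries and 2007 and 2106 CPM in the KO-labelled libraries. That sum was 1.44-fold lower, while the sum of the 7 mitochondrial members of complex I, at 8661 and 8859 CPM and 5855 and 5819 CPM, was 1.501-fold lower, with a median log2 fold change of -0.51. All 6 tested nuclear core subunits, which carry the flavin and the iron-sulphur clusters or sit beside them, were lower, with a median of -0.57. Ndufv1, the subunit that binds NADH and flavin, stood at 168 and 165 CPM and 92.6 and 90.98 CPM, 1.82-fold lower, the largest fall of the core. Ndufv1 did not overlap between labels.

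The accessory subunits of complex I, which surround the core and help assemble it, ranged more widely. Of 29 tested, 24 were lower and 5 did not pass, with a median of -0.45. Ndufb10, of the distal membrane arm, stood at 81.3 and 74.1 CPM in the WT-labelled libraries and 25.7 and 26.01 CPM in the KO-labelled libraries. Its log2 fold change was -1.59 ± 0.066 (SE; edgeR adjusted p = 7.28e-17), the largest fall of the complex. Ndufa5, of the matrix arm, followed with 63.6 and 62.5 CPM and 23.5 and 26.1 CPM (log2 fold change -1.35 ± 0.07, SE; edgeR adjusted p = 7.54e-15). Both genes were clearly separated between labels. Ndufb7, another subunit of the distal membrane arm, did not pass and overlapped between labels at 67.4 and 65.7 CPM and 66.9 and 71.05 CPM. The count ratio of Ndufb10 to Ndufb7 within a library was 1.21 and 1.13 in the WT-labelled libraries and 0.383 and 0.366 in the KO-labelled libraries, so subunits of the same arm did not keep 1 ratio.

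The other accessory subunits that did not pass were Ndufa6 (77.4 and 81.8 CPM, then 80.9 and 90.9 CPM), Ndufa13 (56.3 and 54.8 CPM, then 53.9 and 66.4 CPM), Ndufb3 (43.7 and 40.5 CPM, then 39.4 and 40.2 CPM) and Ndufb2 (3.65 and 3.83 CPM, then 4.26 and 4.13 CPM). Ndufa6 and Ndufa13 overlapped between labels, while Ndufb3 and Ndufb2 lay apart by little. Between these and Ndufb10 lay members such as Ndufa10, at 159 and 154 CPM and 74.3 and 75.8 CPM, and Ndufs4, a matrix arm subunit known from Leigh syndrome, at 76.1 and 78.96 CPM and 57.5 and 64.4 CPM. Ndufa10 was 2.09-fold lower and Ndufs4 1.27-fold lower, both passing. Ndufa4, which is grouped here by its symbol although the protein is now placed in complex IV, was 1.75-fold lower.

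Complex II, succinate dehydrogenase, links the tricarboxylic acid cycle to the chain and is wholly nuclear-encoded. All 4 of its members were lower, with a median of -0.35. The flavoprotein subunit Sdha stood at 331 and 339.8 CPM in the WT-labelled libraries and 239.7 and 237 CPM in the KO-labelled libraries (log2 fold change -0.49 ± 0.03, SE; edgeR adjusted p = 2.57e-13). Sdhd, a membrane anchor, stood at 172 and 175 CPM and 116 and 115 CPM and was 1.51-fold lower. The iron-sulphur subunit Sdhb, at 106 and 106 CPM and 92.8 and 91.03 CPM, and the other anchor Sdhc, at 104 and 106 CPM and 93.8 and 89.1 CPM, were 1.16-fold and 1.15-fold lower. Sdha, Sdhb, Sdhc and Sdhd each lay apart between labels, but the small falls of Sdhb and Sdhc were lost when libraries were scaled by total counts alone (log2 fold changes 0.0014 and 0.0066).

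Complex III, the cytochrome bc1 complex, had the lowest nuclear median, -0.86, with 7 of 8 members lower. Uqcrq, a small subunit of the membrane part, stood at 232 and 227 CPM in the WT-labelled libraries and 75.04 and 80.6 CPM in the KO-labelled libraries (log2 fold change -1.56 ± 0.041, SE; edgeR adjusted p = 7.95e-21). Uqcr10, another small subunit, stood at 163 and 172 CPM and 70.4 and 73.5 CPM (log2 fold change -1.21 ± 0.044, SE; edgeR adjusted p = 5e-18). Both were well apart, whereas Uqcrfs1, the Rieske iron-sulphur protein of the catalytic core, overlapped between labels at 158 and 144 CPM and 141 and 149 CPM and did not pass. The core protein genes differed from each other as well: Uqcrc2 was 1.17-fold lower, at 175 and 171 CPM and 145 and 151 CPM, a call lost with scaling by total counts alone (edgeR adjusted p = 0.759). Uqcrc1 had 171 and 142 counts and 116 and 77 counts, 1.81-fold lower (edgeR adjusted p = 0.00373), and did not pass without KO-labelled replicate 2 (edgeR adjusted p = 0.0781).

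Complex IV, cytochrome c oxidase, had 15 nuclear members tested: 12 lower, 2 higher and 1 that did not pass, with a median of -0.67. The ubiquitous subunits were all lower, from Cox7c, at 319 and 331 CPM and 233 and 257 CPM, to Cox6b1, at 239.5 and 232 CPM and 121 and 117 CPM. These were 1.33-fold and 1.98-fold falls with no overlap between labels. Cox4i1, the largest nuclear subunit and the one through which ATP regulates the enzyme, had the most counts of the nuclear members here and stood at 420.0 and 416 CPM and 224 and 229.9 CPM (log2 fold change -0.88 ± 0.03, SE; edgeR adjusted p = 1.16e-18). Cox7a2l, whose protein joins complexes III and IV in supercomplexes, was 1 of the 2 that rose, from 113 and 107 CPM to 143 and 149 CPM (log2 fold change 0.41 ± 0.042, SE; edgeR adjusted p = 3.95e-09).

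Complex V, the ATP synthase, joins a catalytic F1 head to a membrane Fo motor. Of its 17 nuclear members 13 were lower and 2 higher, with a median of -0.78, and its nuclear sum was 7443 and 7456 CPM and 4415 and 4439 CPM, 1.68-fold lower. The catalytic subunit Atp5b, with the most counts of all nuclear members, stood at 2791 and 2764 CPM in the WT-labelled libraries and 1519 and 1521 CPM in the KO-labelled libraries (log2 fold change -0.87 ± 0.021, SE; edgeR adjusted p = 1.39e-21). Its partner in the F1 hexamer, Atp5a1, stood at 1677 and 1693 CPM and 1131 and 1114 CPM and was 1.501-fold lower. Both fell with no overlap, but Atp5b by more, so that their count ratio went from 1.66 and 1.63 to 1.34 and 1.36. Atp5d, the delta subunit of the F1 stalk, overlapped between labels at 164 and 151 CPM and 156 and 165 CPM and did not pass.

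All 7 nuclear members of the Fo motor and peripheral stalk outside the c ring were lower, each at least 1.5-fold, with log2 fold changes from -1.19 to -0.77. Atp5o, the stalk subunit that holds the F1 head, stood at 251 and 255 CPM and 110.1 and 111 CPM (log2 fold change -1.19 ± 0.035, SE; edgeR adjusted p = 8.08e-20). Atp5j, of the same stalk, stood at 239.5 and 239 CPM and 108 and 108 CPM and was 2.22-fold lower. RefSeq places Atp5j across Gabpa, which also fell. Other members overlap a gene too, among them Atp5a1 (Haus1), Atp5d (Cbarp), Uqcrq (Gdf9), Cox7a2 (Tmem30a) and Ndufa13 (Tssk6). Since the strand used in counting is not given in the sources used here, reads of such pairs cannot be told apart. Atp5s, a coupling factor-like gene that RefSeq lists as Dmac2l, was the member with the largest rise, from 5.87 and 6.102 CPM to 13.1 and 13.9 CPM (log2 fold change 1.176 ± 0.14, SE; edgeR adjusted p = 5.81e-08). Its relative Atp5sl, listed as Dmac2, did not pass at 40.7 and 41.9 CPM and 38.04 and 41.4 CPM. Atp5s and Atp5sl are grouped here with complex V by their symbols and were classed as assembly or associated genes, not as subunits.

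Genes for alternative forms of 1 subunit moved apart in the c ring of the ATP synthase and in subunits 6B and 7A of complex IV. The c ring, the rotor of the enzyme, is built from 1 mature c subunit that 3 genes encode with different import sequences. Atp5g1 stood at 238 and 251 CPM in the WT-labelled libraries and 57.5 and 58.4 CPM in the KO-labelled libraries, and Atp5g3 at 378 and 372 CPM and 208 and 207 CPM. Atp5g2 stood at 223 and 230.2 CPM and 257 and 246 CPM. The first 2 were lower in both KO-labelled libraries and Atp5g2 was higher in both, with no overlap. Atp5g1 fell 4.22-fold (log2 fold change -2.08 ± 0.041, SE; edgeR adjusted p = 3.26e-23), Atp5g3 1.81-fold, and Atp5g2 rose 1.11-fold (log2 fold change 0.15 ± 0.033, SE; edgeR adjusted p = 0.000267).

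As a share of the counts of the 3 c-subunit genes, which are not corrected for length, Atp5g1 held 28.3% and 29.4% in the WT-labelled libraries and 10.99% and 11.4% in the KO-labelled libraries. Atp5g2 held 26.6% and 26.97% and 49.2% and 48.05%, and Atp5g3 45.1% and 43.6% and 39.8% and 40.5%. The count ratio of Atp5g1 to Atp5g2 was 4.68-fold lower in the KO-labelled libraries. Summed, the 3 genes still fell, from 839 and 853 CPM to 523 and 512 CPM.

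A like pattern was seen in subunits 6B and 7A of complex IV. Cox6b1 is the common form of the 6B subunit and Cox6b2 is known as its testis form. Cox6b2 stood at 47.98 and 50.3 CPM in the WT-labelled libraries and 88.2 and 88.9 CPM in the KO-labelled libraries (log2 fold change 0.85 ± 0.054, SE; edgeR adjusted p = 4.42e-13), while Cox6b1 fell as given above. The Cox6b2 share of the counts of the pair was 16.7% and 17.8% and 42.1% and 43.2%. Cox7a1, known as the heart and muscle form of 7A, stood at 19.1 and 16.9 CPM and 3.29 and 3.596 CPM (log2 fold change -2.39 ± 0.15, SE; edgeR adjusted p = 2.47e-13), the largest fall of all members. Cox7a2, the common form, stood at 155 and 158 CPM and 115 and 111 CPM, 1.38-fold lower. Neither gene overlapped between labels, and the count ratio of Cox7a1 to Cox7a2 was 3.77-fold lower.

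**Figure D2:**
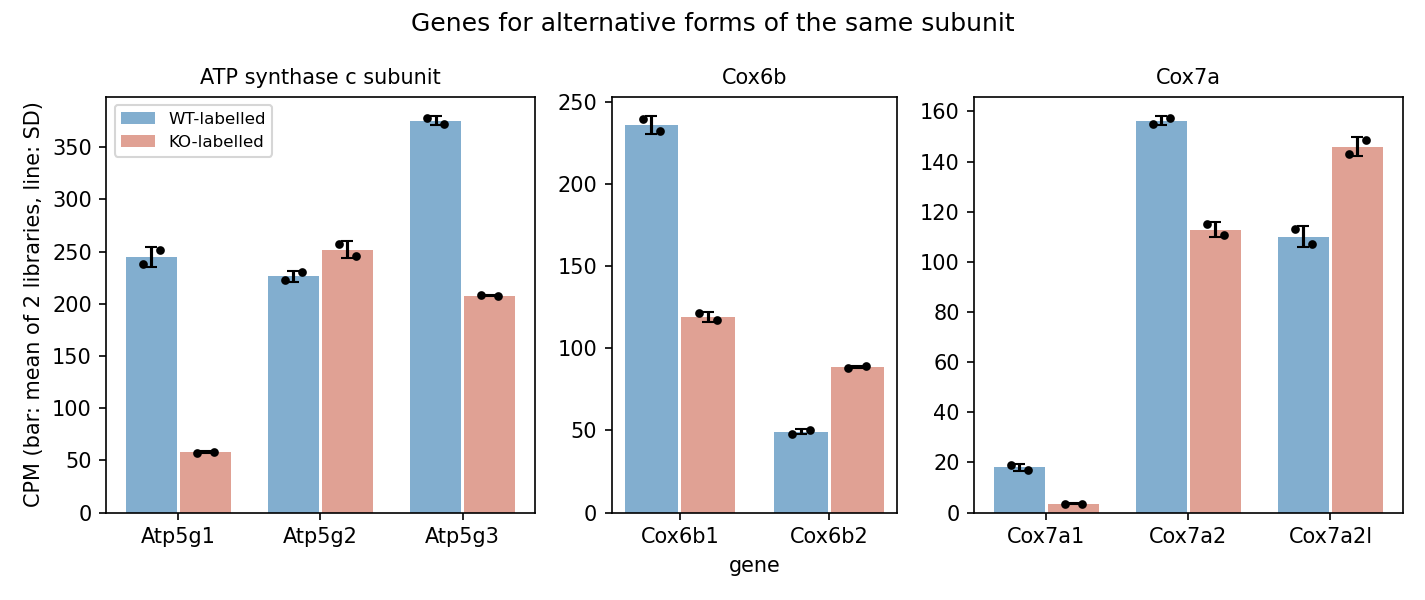
CPM of the genes for the c subunit of the ATP synthase and for subunits 6B and 7A of complex IV, with bars for the mean of 2 libraries, lines for the SD and points for single libraries. Atp5g1, Atp5g3, Cox6b1, Cox7a1 and Cox7a2 are lower in the KO-labelled libraries, and Atp5g2, Cox6b2 and Cox7a2l are higher.

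The remaining tissue-restricted or inducible forms were scarce. Ndufa4l2, a hypoxia-inducible relative of Ndufa4, stood at 8.51 and 9.93 CPM and 7.14 and 7.05 CPM (edgeR adjusted p = 0.0347), a call that DESeq2 did not make (adjusted p = 0.0697) and that was lost without WT-labelled replicate 2, KO-labelled replicate 1 or KO-labelled replicate 2 (edgeR adjusted p = 0.184, 0.0939 and 0.11), or with scaling by total counts alone or by upper quartiles (edgeR adjusted p = 0.351 and 0.101). Cox4i2, the lung and hypoxia form of subunit 4, stood at 1.14 and 2.35 CPM and 0.845 and 0.725 CPM (edgeR adjusted p = 0.0285), a call lost without WT-labelled replicate 2 (edgeR adjusted p = 0.424) or KO-labelled replicate 2 (edgeR adjusted p = 0.094), or with scaling by total counts alone (edgeR adjusted p = 0.071). Cox4i2 held 0.270% and 0.561% of the counts of the Cox4i1 and Cox4i2 pair in the WT-labelled libraries and 0.376% and 0.314% in the KO-labelled libraries, shares that overlapped between labels. Ndufa4l2 held 3.92% and 4.801% and 5.88% and 5.68% of the counts of its pair with Ndufa4. Cox7b2, known from testis, stood at 0.427 and 0.505 CPM and 0.6997 and 0.892 CPM and did not pass. The muscle forms Cox6a2 and Cox8b and the testis form Cox8c had at most 8 counts in any library and were not tested.

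The promoters of some of the genes that parted are shown to let their sequences be compared. Each is the RefSeq (GRCm38.p6) sequence before the listed start, limited to bases outside the gene, written in the gene's direction, with any match in capitals to the letters searched on both strands: GCGCATGC (NRF1), CCGGAAG (ETS factors such as GABP), AAGATGGCG (YY1), TCAAGGTCA (estrogen-related receptors) and GGGCGG (Sp and KLF factors). Atp5g1 (chr11:96075695-96075881, minus strand) and Cox7a1 (chr7:30183921-30184170, plus strand) hold none of these letters. Atp5g2 (chr15:102671048-102671297, minus strand) holds NRF1 letters on both strands, overlapping, from 42 and 40 bases before the start. Cox6b1 (chr7:30626115-30626364, minus strand) holds ETS letters on the other strand from 28 bases before it. Cox6b2 (chr7:4753095-4753344, minus strand) and Cox7a2l (chr17:83514334-83514583, minus strand) hold Sp and KLF letters, from 193 and 22 bases before the start.
Atp5g1: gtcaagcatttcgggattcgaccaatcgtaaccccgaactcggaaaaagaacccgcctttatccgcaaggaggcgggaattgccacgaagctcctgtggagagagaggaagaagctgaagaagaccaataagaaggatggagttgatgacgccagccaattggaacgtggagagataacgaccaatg
Atp5g2: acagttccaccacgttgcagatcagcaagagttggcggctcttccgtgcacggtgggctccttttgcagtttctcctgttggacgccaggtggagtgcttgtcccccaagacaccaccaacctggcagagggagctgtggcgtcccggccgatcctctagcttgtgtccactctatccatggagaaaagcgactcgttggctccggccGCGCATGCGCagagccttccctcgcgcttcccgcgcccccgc
Cox6b1: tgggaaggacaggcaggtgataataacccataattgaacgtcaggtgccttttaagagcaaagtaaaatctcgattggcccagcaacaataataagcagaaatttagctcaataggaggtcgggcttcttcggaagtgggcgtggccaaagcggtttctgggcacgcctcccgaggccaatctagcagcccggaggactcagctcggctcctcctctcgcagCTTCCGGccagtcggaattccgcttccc
Cox6b2: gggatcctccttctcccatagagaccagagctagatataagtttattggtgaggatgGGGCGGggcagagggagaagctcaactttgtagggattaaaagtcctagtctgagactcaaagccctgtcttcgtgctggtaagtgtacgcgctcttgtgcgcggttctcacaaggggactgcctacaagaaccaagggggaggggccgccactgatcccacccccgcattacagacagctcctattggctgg
Cox7a1: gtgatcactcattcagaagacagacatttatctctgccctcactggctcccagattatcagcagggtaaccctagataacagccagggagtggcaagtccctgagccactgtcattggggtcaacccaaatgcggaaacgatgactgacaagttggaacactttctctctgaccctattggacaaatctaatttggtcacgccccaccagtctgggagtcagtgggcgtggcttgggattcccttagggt
Cox7a2l: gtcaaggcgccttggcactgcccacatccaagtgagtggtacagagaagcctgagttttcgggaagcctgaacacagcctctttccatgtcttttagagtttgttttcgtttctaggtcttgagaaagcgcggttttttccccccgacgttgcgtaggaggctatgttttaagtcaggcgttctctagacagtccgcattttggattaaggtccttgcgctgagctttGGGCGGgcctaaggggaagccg

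RefSeq promoters, from 250 bases before to 50 after the start, were available for 69 of the 84 nuclear members. NRF1 letters stood in 14.5% of them (95% exact interval 7.17% to 25.04%), against 5.53% of the promoters of genes tested and 3.05% of all promoters. YY1 letters stood in 11.6% (5.14% to 21.6%), against 3.15% and 1.64%, and ETS letters in 23.2% (13.9% to 34.9%), against 18.2% and 9.93%. Letters of the estrogen-related receptors stood in 2 promoters, those being 2.90% against 0.320% and 0.466%. Sp and KLF letters stood in 40.6% (28.9% to 53.1%), against 66.7% of genes tested and 38.2% of all promoters. On the given strand alone, NRF1 letters stood in 7.25% of members' promoters (2.39% to 16.1%) against 3.88% of genes tested, and ETS letters in 7.25% (2.39% to 16.1%) against 10.1%, below the genes tested and no longer above them. The median GC content was 56.0% for members and 59.6% for genes tested, on the 250 bases before the start. A match is a description of letters, and the share of promoters that proteins occupy was not measured here.

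Most members were lower both with and without such letters. Of 15 tested members with ETS letters 14 were lower and none higher, with a median of -0.78, and of 52 without them 40 were lower and 4 higher, with a median of -0.57. Of 10 with NRF1 letters 8 were lower and 1, Atp5g2, was higher. Of 27 with Sp and KLF letters 20 were lower and 4 higher, with a median of -0.61, and of 40 without them 34 were lower and none higher, with a median of -0.70. The 4 nuclear members that rose thus all held Sp and KLF letters, in Atp5g2 within the 50 bases after the start, which are not printed. The same letters stood in 66.7% of the promoters of genes tested. Only GGGCGG was searched for these factors, so a promoter without it may hold other sequences that KLF factors bind.

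The 13 mitochondrially encoded members are transcribed as long polycistronic RNAs and cut apart, 12 from 1 strand and mt-Nd6 from the other. mt-Nd1, of complex I, stood at 3373 and 3460.4 CPM in the WT-labelled libraries and 1863 and 1899 CPM in the KO-labelled libraries (log2 fold change -0.86 ± 0.021, SE; edgeR adjusted p = 2.52e-21), the largest fall among them. mt-Nd2 stood at 1637 and 1648 CPM and 1149 and 1137 CPM, and mt-Nd4 at 1289.5 and 1355 CPM and 918 and 938 CPM. Those were 1.44-fold and 1.42-fold falls, again without overlap. mt-Nd5, at 2004 and 2034 CPM and 1621 and 1539 CPM, mt-Cytb of complex III, at 3207 and 3293 CPM and 2602 and 2543 CPM, and mt-Nd6, at 353 and 356 CPM and 299 and 301 CPM, fell by less, 1.28-fold, 1.26-fold and 1.181-fold. The call on mt-Nd6 was lost with scaling by total counts alone (edgeR adjusted p = 0.349).

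mt-Co1, the catalytic subunit of complex IV and the member with the most counts, stood at 11559 and 11961 CPM and 10937 and 11086 CPM. Its fall was 1.07-fold (edgeR adjusted p = 7.6e-05), and it was higher instead when libraries were scaled by total counts alone (log2 fold change 0.11; edgeR adjusted p = 2.37e-06) and did not pass with upper-quartile factors (edgeR adjusted p = 0.703). Ratios within a library do not depend on that choice. The count ratio of mt-Nd1 to mt-Co1 was 0.292 and 0.289 in the WT-labelled libraries and 0.1704 and 0.171 in the KO-labelled libraries, and that of mt-Cytb to mt-Co1 was 0.277 and 0.275 and 0.238 and 0.229. The mitochondrial genes thus changed unequally within each library. The counts of the ribosomal RNA genes beside them fell further. mt-Rnr2, the large ribosomal RNA, stood at 607 and 603 CPM and 123 and 121 CPM, 4.94-fold lower (edgeR adjusted p = 8.19e-27). mt-Rnr1, the small one, stood at 136 and 136 CPM and 61.9 and 65.7 CPM, 2.13-fold lower (edgeR adjusted p = 1.12e-16). The count ratio of mt-Rnr2 to mt-Co1 was 0.053 and 0.050 and 0.0113 and 0.0109. The part of library preparation in these ribosomal RNA levels was not tested.

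Per kilobase of gene, the mitochondrial members fell into a high set and a low stretch. Along the mitochondrial genome of the same RefSeq assembly, mt-Nd1 (chrM:2751-3707) stood at 3525 and 3616 CPM per kilobase in the WT-labelled libraries and mt-Co1 (chrM:5328-6872) at 7482 and 7742 CPM per kilobase. The next gene, mt-Co2 (chrM:7013-7696), stood at 53.8 and 80.5 CPM per kilobase. From there to mt-Nd4l (chrM:9877-10173), 6 neighbouring genes held 0.143 to 80.5 CPM per kilobase over all 4 libraries, and the other 7 genes held 577 to 7742 CPM per kilobase. The ranges of the stretch and of the remaining genes did not overlap in any library. In counts, the stretch summed to 2598, 3122, 3075 and 3225 against 822531, 667729, 665102 and 697589 for the rest, in WT-labelled replicates 1 and 2 and KO-labelled replicates 1 and 2.

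The low stretch includes a gene with a like-named nuclear copy. RefSeq lists a pseudogene, Gm10925 (chr1:24613971-24614651), with mt-Atp6 among its synonyms. It had 612 and 813 counts in the WT-labelled libraries and 761 and 929 counts in the KO-labelled libraries. For mt-Atp6 itself there were 553 and 648 counts and 636 and 633 counts. In CPM, Gm10925 stood at 17.4 and 29.4 and at 22.2 and 25.9, so its WT-labelled replicates differed more than its KO-labelled ones. Reads without a unique alignment made up 7.06% to 7.69% of each library's total and enter no gene, so the levels of these 6 genes are uncertain, and the part of the copy in them was not tested. mt-Atp6 also overlaps mt-Atp8 and mt-Co3, as mt-Nd4l does mt-Nd4, and reads in an overlap may not be assigned to either gene.

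Within the low stretch no gene passed the test. mt-Co2, the other core subunit with copper, stood at 36.8 and 55.1 CPM and 42.5 and 45.3 CPM, and mt-Co3 at 17.4 and 29.1 CPM and 24.4 and 22.4 CPM. mt-Atp6, the Fo channel subunit, stood at 15.7 and 23.4 CPM and 18.5 and 17.6 CPM. In these 3 genes the WT-labelled replicates differed more from each other than the KO-labelled ones did, and the labels overlapped. The direction turned with the WT-labelled replicate left out. Without WT-labelled replicate 1, mt-Co2, mt-Co3 and mt-Atp6 had log2 fold changes of -0.33, -0.32 and -0.38. Without WT-labelled replicate 2, mt-Co2, mt-Co3 and mt-Atp6 had log2 fold changes of 0.24, 0.42 and 0.19. mt-Nd3, at 1.54 and 2.17 CPM and 2.48 and 2.56 CPM, and mt-Nd4l, at 2.39 and 2.89 CPM and 1.69 and 1.73 CPM, did not pass, and mt-Atp8, with 1 to 7 counts, was not tested.

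**Figure D3:**
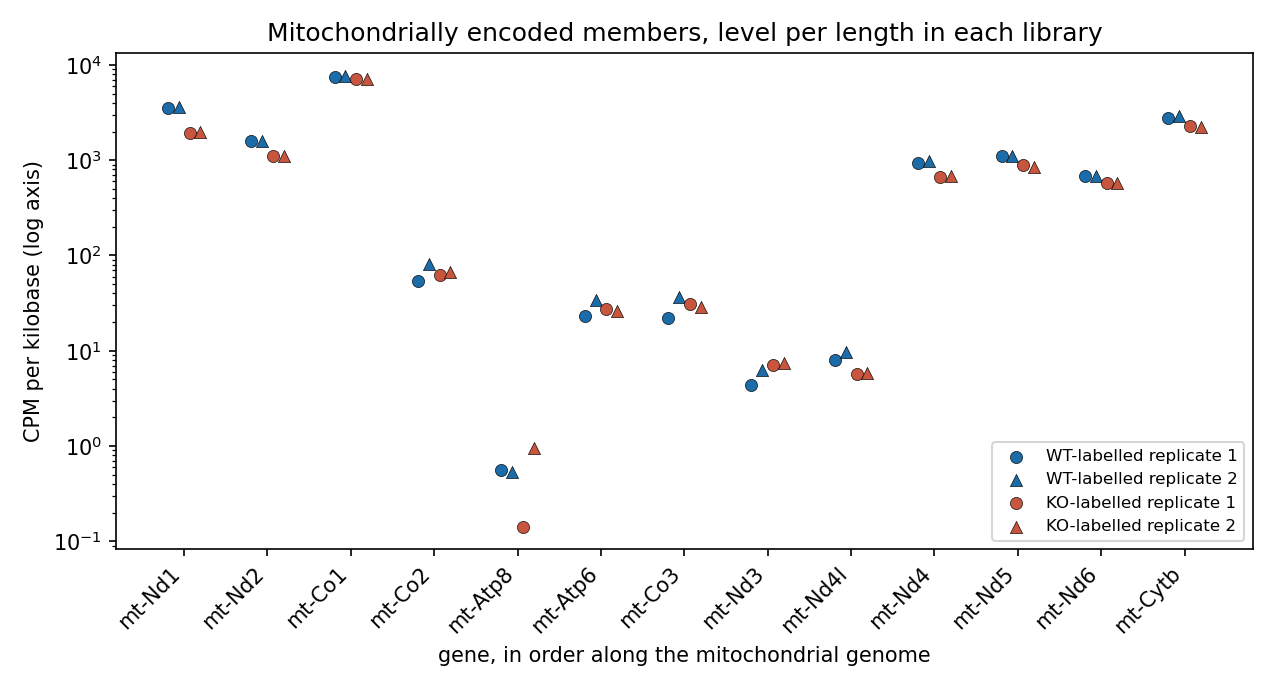
CPM per kilobase of gene (log axis) of the 13 mitochondrially encoded members in each of the 4 libraries, in their order along the mitochondrial genome. The 6 genes from mt-Co2 to mt-Nd4l lie at 0.143 to 80.5 CPM per kilobase and the other 7 at 577 to 7742.

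Some nuclear subunits that every cell with a respiratory chain needs were also scarce in all 4 libraries. Ndufs3, a core subunit of complex I, had 0 and 0 counts in the WT-labelled libraries and 0 and 2 counts in the KO-labelled libraries and was not tested. Ndufb2 had 128 and 106 counts and 146 and 148 counts, and Ndufs5 had 358 and 245 counts and 179 and 169 counts, beside Uqcrc1 above. RefSeq shows no gene overlapping any of these 4, and the cause was not tested. The level of Ndufs3 in particular is not read as expression of the gene.

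Polymerase II loops were set beside the expression of the members. After loops were limited to a false discovery rate of at most 0.01 and at least 2 paired tags, 22148 loops were listed for the WT-labelled cells and 57463 for the KO-labelled cells. An anchor lay within 2500 bases of the start of 51 of 84 nuclear members in the WT-labelled list (60.7%, 95% exact interval 49.5% to 71.2%) and of 62 in the KO-labelled list (73.8%, 63.1% to 82.8%). The same shares over 15985 genes tested were 43.9% and 61.4%. Where RefSeq gave no promoter, either end of the gene counted as its start, so an anchor there may lie at the far end. With all loops as deposited, 79 and 80 members had an anchor (94.05% and 95.2%), against 71.9% and 83.1% of genes tested. Both lists had an anchor at 42 members, the WT-labelled list alone at 9, the KO-labelled list alone at 20, and neither at 13. The same split over all genes tested is not given here, and the KO-labelled list is the larger. The split is therefore not read as a trait of the members. Each list pools its replicates and the lists differ in size, so this is a description with no test. Intervals cover counting error only, and the genotype of each list rests on its label.

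Among the genes that parted, loops and expression did not always go the same way. At Cox7a1 the WT-labelled list held 35 loops with 274 tags and the KO-labelled list 0. At Cox6b1 it held 13 loops with 110 tags against 2 loops with 4 tags, and at Atp5g1 3 loops with 11 tags against 0. These 3 genes also had lower RNA levels in the KO-labelled libraries. Cox6b2 had 0 loops in the WT-labelled list and 5 loops with 12 tags in the KO-labelled list, and Cox7a2l had 0 loops against 3 loops with 7 tags, both with higher RNA levels in the KO-labelled libraries. Ndufb10 went the other way, with 5 loops and 16 tags against 26 loops and 107 tags while its RNA level was lower. Atp5g2, which rose, had 17 loops with 57 tags against 8 loops with 39 tags. Atp5g3 and Cox7a2, which fell, each had 0 loops in the WT-labelled list. In the KO-labelled list they had 1 loop with 12 tags and 1 loop with 2 tags. Loops and tags are given as listed, not scaled to the size of each list. Anchors shared with neighbouring genes in the window were not separated.

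Lists of genes that serve the respiratory chain were counted in the same test, against the same 35.8% of all genes lower and 37.2% higher. Of 14 subunits and carriers whose symbols fall outside the choice above, 12 were lower and 2 higher, with a median log2 fold change of -0.52. Slc25a4, which exchanges ATP for ADP across the inner membrane, stood at 487 and 488 CPM in the WT-labelled libraries and 185 and 193 CPM in the KO-labelled libraries, 2.58-fold lower, and Usmg5, a small ATP synthase subunit, at 129.9 and 131 CPM and 63.3 and 61.1 CPM, 2.096-fold lower. The 2 that rose, Gpd2 of the glycerol phosphate shuttle and the ATP synthase inhibitor Atpif1, had log2 fold changes of 0.11 and 0.12. The falls were thus larger than the rises in this list.

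Of 46 assembly factors of complexes I to V tested, 28 were lower and 5 higher, with a median of -0.48. Atpaf2, a chaperone of the F1 alpha subunit, stood at 57.8 and 56.9 CPM and 20.9 and 19.8 CPM, and Acad9, of complex I assembly, at 78.2 and 81.8 CPM and 34.8 and 34.3 CPM. Surf1, an assembly factor of complex IV whose loss causes Leigh syndrome, rose from 10.6 and 9.098 CPM to 32.2 and 30.1 CPM, and Ndufaf7, a methyltransferase of complex I assembly, from 12.1 and 10.9 CPM to 30.00 and 30.05 CPM. None of these 4 genes overlapped between labels, and rises of 3.15-fold and 2.599-fold stood beside falls of 2.82-fold and 2.32-fold. Coenzyme Q synthesis was mixed, with 7 of 13 lower and 4 higher and a median of -0.33. Pdss1, which makes the polyprenyl tail, was 3.39-fold lower, and Coq4 2.26-fold lower. Coq8a, a kinase-like regulator, was 3.09-fold higher, and Coq10a 1.76-fold higher.

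The genes that copy, transcribe and process mitochondrial DNA and its RNA were mostly lower, 22 of 27, with 2 higher and a median of -0.58. Elac2, which cuts tRNAs from the long transcripts at their 3′ ends, stood at 155 and 156 CPM in the WT-labelled libraries and 47.6 and 46.5 CPM in the KO-labelled libraries, 3.298-fold lower, and Mtpap, the mitochondrial poly(A) polymerase, was 2.09-fold lower. Polg, the mitochondrial DNA polymerase, stood at 100.4 and 102 CPM and 252 and 256 CPM, 2.52-fold higher, and the elongation factor Tefm was 1.27-fold higher. The mitochondrial ribosome, which translates only mitochondrially encoded proteins, had 70 of 77 genes lower and 2 higher, with a median of -0.73. Mrpl19 was 4.62-fold lower and Mrpl55 2.96-fold lower, while Mrpl23 was 2.65-fold higher and Mrpl48 1.33-fold higher. For comparison, 31 of 86 genes of the cytosolic ribosome were lower and 39 higher, with a median of 0.040.

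Of 26 genes of mitochondrial protein import and proteostasis, 22 were lower and 1 higher, with a median of -0.68. The matrix protease subunit Clpp stood at 127 and 125 CPM and 40.03 and 37.2 CPM and the prohibitin Phb at 377 and 381 CPM and 141 and 141 CPM, 3.25-fold and 2.69-fold lower. Tomm20, the receptor at the outer membrane, was the gene that rose, from 173 and 172 CPM to 425 and 453 CPM. The tricarboxylic acid cycle and pyruvate dehydrogenase had 16 of 18 genes lower and none higher, with a median of -0.38, led by Suclg1 (3.29-fold lower) and Mdh2 (2.64-fold lower). Regulators of mitochondrial biogenesis did not share this direction: 7 of 19 were lower and 8 higher, with a median of 0.11. Gabpa, the DNA-binding part of the ETS factor GABP, stood at 330.0 and 336 CPM and 115 and 114 CPM, 2.902-fold lower, and the orphan receptor Esrrb at 930.2 and 924 CPM and 473 and 487 CPM, 1.93-fold lower. Lin28b, an RNA-binding protein of early development, rose 6.56-fold and Mycn 2.47-fold, each without overlap between labels.

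**Figure D4:**
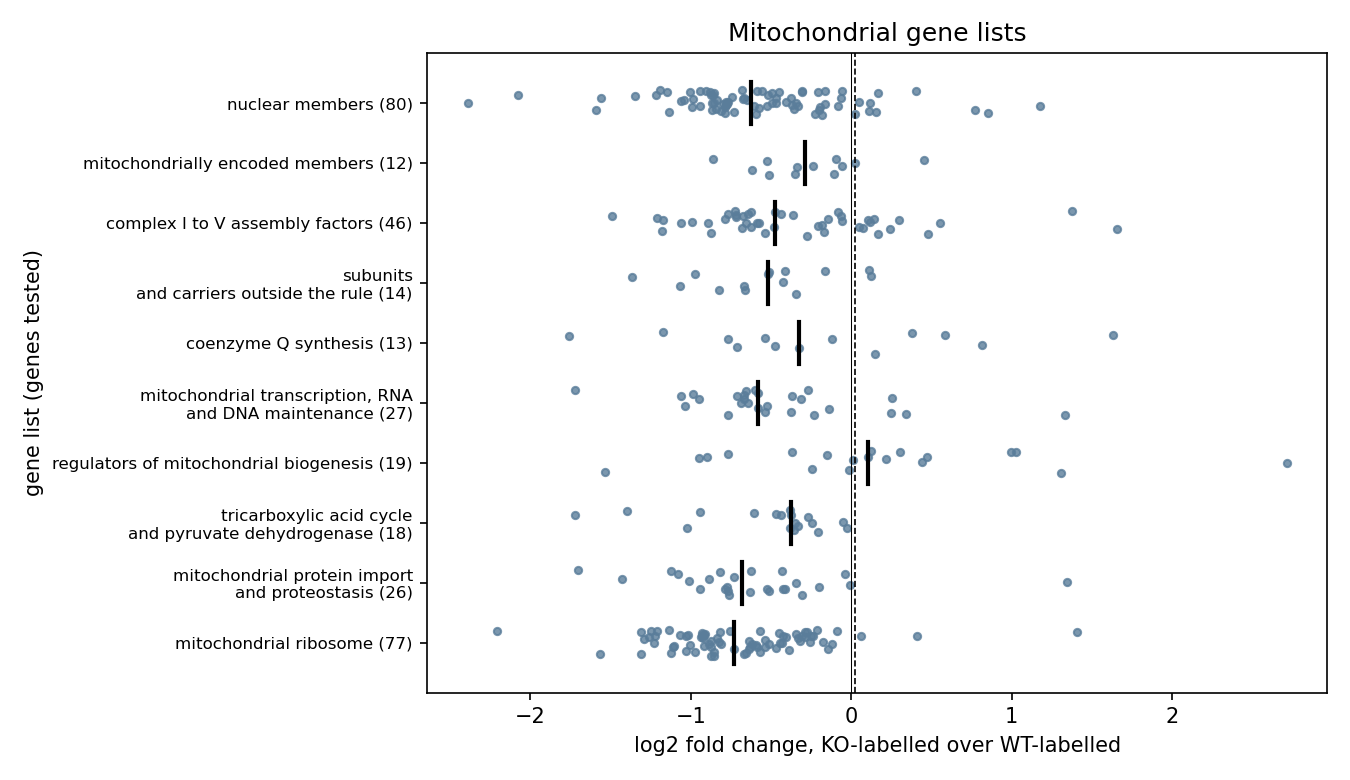
Log2 fold change (KO-labelled over WT-labelled, 2 libraries each) of each tested gene in the nuclear and mitochondrial members and in the lists of related mitochondrial genes, with list medians as bars and the median of all genes dashed. Every list median but that of the regulators of mitochondrial biogenesis (0.11) lies below 0, the mitochondrial ribosome lowest at -0.73.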

How the data were processed

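Raw counts per gene were deposited by the authors, 1 table per library. The submitters' processing notes list HISAT2 2.1.0, featureCounts 2.0.3 and DESeq2 1.18.1 with build mm10 and no role for each; neither the annotation nor the strand setting of the counting is given in the sources used here. Entries naming no gene numbered 5 per table, and reads in no feature were 6.05% to 6.16% of the total in WT-labelled and 8.00% to 8.07% in KO-labelled libraries. They stayed out of the library sizes.

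All 52535 genes entered edgeR 4.0.16 (R 4.3.3; filterByExpr, TMM scaling, robust quasi-likelihood fit and two-sided test, no replicate block), with Benjamini-Hochberg adjustment of p-values across the 17273 genes kept. TMM factors were 0.928 to 0.931 for WT-labelled and 1.07 to 1.08 for KO-labelled libraries. CPM use these scaled library sizes. Standard errors are the absolute log2 fold change over the square root of F. A count of 3 corresponds to 0.0836 to 0.108 CPM. The fit was tested on simulated data.

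HiChIP loops were deposited by the authors as 1 list per labelled genotype, with paired tag counts and a q-value (false discovery rate) per loop; replicates appear pooled, and the submitters' processing notes list HiC-Pro 2.11.1, Bowtie2 2.4.4 and MACS2 2.2.7.1. Gene positions and promoters came from RefSeq (GRCm38.p6, the mm10 build). All 97 members matched an entry, and 69 of 84 nuclear members a promoter.

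Members and lists were chosen with earlier results of these data known. Full values are given for the 2 largest rises and falls that passed in each complex, the mitochondrial members, the restricted isoforms, the member with the most counts in each complex, and the 2 largest rises and falls of each list; values of other members illustrate the range, and the rest enter by counts, medians and sums. Alternatives were other scalings, DESeq2 1.42.0, no filter on low counts, a replicate block, mitochondrial genes left out of scaling, each library left out, and other loop and motif settings. Same-numbered replicates shared only a number (correlation of their deviations 0.0128).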

Additional observations from a re-analysis of the deposited data

How the results depend on the processing

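Of 78 members that passed, 62 kept direction and call under all 10 alternatives to the fit. With a replicate block, 74 members were lower and 4 higher, and all 92 tested members kept direction and call. Scaling by library size alone moved the median of all genes by 0.21 and the share of higher genes among all that passed from 50.9% to 62.0%; upper-quartile factors moved the median by 0.086. In that order the 2 scalings gave 10 and 8 members higher, median log2 fold changes of -0.42 and -0.54 (nuclear) and -0.079 and -0.20 (mitochondrial), and log2 ratios of summed levels of -0.45 and -0.57 (nuclear, otherwise -0.66) and -0.081 and -0.20 (mitochondrial, otherwise -0.29). Library size alone left 28 members at least 1.5-fold lower and put 40 list genes higher, against 24. Leaving out each library gave medians of -0.67 to -0.60 (nuclear) and -0.37 to -0.28 (mitochondrial), and summed log2 ratios of -0.68 to -0.64 and -0.32 to -0.28.

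Signs turned with library size alone for Ndufa7 (0.044), Ndufb11 (0.046), Ndufb3 (0.13), Ndufb5 (0.028), Ndufc2 (0.013), Sdhb (0.0014), Sdhc (0.0066), Uqcrfs1 (0.15), Atp5sl (0.15), mt-Atp6 (0.11), mt-Co1 (0.11), mt-Co2 (0.15) and the mitochondrial sums of complexes IV (0.12) and V (0.12). With upper-quartile factors they turned for Atp5sl (0.031), Ndufb3 (0.0035), Uqcrfs1 (0.024), mt-Co2 (0.030) and the mitochondrial sum of complex V (0.00056). Leaving out each library in turn gave log2 fold changes on both sides of 0 for Atp5d (-0.041 to 0.080), Atp5sl (-0.12 to 0.0053), Ndufa13 (-0.048 to 0.26), Uqcrfs1 (-0.13 to 5.2e-05), mt-Atp6 (-0.38 to 0.19), mt-Co2 (-0.33 to 0.24), mt-Co3 (-0.32 to 0.42) and the mitochondrial sum of complex V (-0.37 to 0.19); none of these genes passed with all 4 libraries. The cause was not tested.

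All loops as deposited put an anchor at 79 members in the WT-labelled list (94.05%, against 71.9% of genes tested). On the given strand alone, NRF1 letters stood in 7.25% of members' promoters (3.88% of genes tested), ETS letters in 7.25% (10.1%), Sp and KLF letters in 23.2% (46.0%) and those of the estrogen-related receptors in 0 (0.169%). Ndufs3, mt-Atp8, Cox6a2, Cox8b and Cox8c had too few counts to test, and the cause was not tested.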
